A study of Mus musculus with 4 samples.

Results

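The cells described here were the Tmem176b, Ccn3 and Lxn positive cells of the C3H10T1/2 line, mesenchymal progenitor cells (MPC) from mouse that can become fat and muscle cells, and numbered 645 of 8437 kept cells in the DMSO libraries. They were selected on the 3 genes that name them: a barcode was counted when it held at least 5000 UMIs, at least 1500 genes, at most 20% mitochondrial UMIs and at least 2 UMIs of each of Tmem176b, Ccn3 and Lxn. A UMI is a molecular identifier that marks 1 captured RNA molecule. H3WT or H3R26C MPC, which carry a tagged transgene of histone H3.1, wild type or with arginine 26 changed to cysteine, beside the endogenous H3 genes, were profiled in droplets after DMSO (vehicle) or after 5-Azacitidine (5-Aza), an inhibitor of DNA methylation given at 3 µM for 24 h. The differentiated cells were collected on day 28, and the sources used here do not state the day for DMSO. Each of the 4 conditions had 1 library, so a difference between conditions cannot be told apart from one between libraries. No test was run between or within libraries, since cells are not replicates and the 4 libraries are different conditions, and the intervals given are 95% intervals of counting error only. The kept cells were 22049 of 39891 barcodes in all libraries. The reference for each comparison was the 7175 kept cells of the same DMSO library with no Tmem176b UMI, 3577 in H3WT and 3598 in H3R26C.

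Tmem176b and its neighbour Tmem176a encode related membrane proteins of intracellular vesicles, best known from dendritic cells, where they act on ion flow and antigen handling. Ccn3 (formerly Nov) encodes a secreted matricellular protein of the CCN family, which acts beside growth factors and integrins in connective tissue. Lxn encodes latexin, an inhibitor of carboxypeptidases that is also known as a regulator of stem cell number in blood. In this progenitor line these genes do not define a textbook lineage, and the name used here is only that of the selection.

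Tmem176a, the neighbour of Tmem176b, was not used in the selection, and the promoters of the pair show how near the genes lie. In GENCODE M21 (GRCm38), Tmem176b (ENSMUSG00000029810) is on the minus strand of chromosome 6, 48833818 to 48841496, and Tmem176a (ENSMUSG00000023367) on the plus strand, 48840919 to 48847071. RefSeq (GRCm38.p6) lists several promoter windows for both genes, of 300 bases each. The first listed windows, chr6:48841088-48841387 for Tmem176b and chr6:48841233-48841532 for Tmem176a, belong to start sites 346 bases apart that point away from each other. The windows are shown 5′ to 3′ on the strand of each gene, with the 155 bases they share, read on opposite strands, in capitals.
Tmem176b: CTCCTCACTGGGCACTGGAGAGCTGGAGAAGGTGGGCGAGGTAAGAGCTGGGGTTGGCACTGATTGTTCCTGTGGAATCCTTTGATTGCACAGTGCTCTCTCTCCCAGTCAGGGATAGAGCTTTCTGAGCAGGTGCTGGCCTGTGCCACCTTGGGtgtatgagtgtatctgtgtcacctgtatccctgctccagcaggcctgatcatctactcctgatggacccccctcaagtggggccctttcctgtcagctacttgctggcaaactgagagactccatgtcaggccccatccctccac
Tmem176a: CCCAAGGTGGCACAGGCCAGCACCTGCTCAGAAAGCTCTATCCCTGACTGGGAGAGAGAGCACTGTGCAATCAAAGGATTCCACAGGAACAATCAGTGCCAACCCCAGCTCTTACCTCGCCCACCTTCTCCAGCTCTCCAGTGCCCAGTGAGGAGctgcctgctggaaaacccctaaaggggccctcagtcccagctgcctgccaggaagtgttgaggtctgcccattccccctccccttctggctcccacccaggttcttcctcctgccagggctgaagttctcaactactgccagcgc

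In the H3R26C DMSO library Tmem176a was at 116 CPM (UMIs of the gene per 1000000 UMIs, both summed over the cells of a set; 110 to 121) in the marker-positive cells and at 2.16 CPM (1.81 to 2.57) in the cells with no Tmem176b UMI. In H3WT DMSO it was at 48.6 CPM (39.5 to 59.1) against 0.338 CPM (0.225 to 0.489). The log2 ratios of these levels, with 1 CPM added to each, were 5.20 and 5.21. The link held cell by cell: after every cell was thinned at random to 5000 UMIs, 38.9% (35.1% to 42.8%) of the 643 H3R26C cells with a Tmem176b UMI also held one of Tmem176a, against 4.33% (3.73% to 5.00%) of the 4084 cells without. The same shares in H3WT were 19.6% (9.82% to 33.1%) of 51 cells and 0.328% (0.170% to 0.572%) of 3659 cells.

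The marker-positive cells were far more frequent in the H3R26C library. They were 591 of 4727 kept cells in H3R26C DMSO, a share of 12.5% (11.6% to 13.5%), and 54 of 3710 in H3WT DMSO, a share of 1.46% (1.10% to 1.89%). With 5-Aza they were 260 of 7619 cells in H3R26C, or 3.41% (3.02% to 3.84%), and 32 of 5993 in H3WT, or 0.534% (0.366% to 0.753%). Counts of cells with a UMI depend on depth, and the H3WT DMSO library was the deepest, with a median of 22420 UMIs per kept cell against 16598 in H3R26C DMSO, 13149 in H3WT 5-Aza and 13123 in H3R26C 5-Aza. With all cells thinned to 5000 UMIs and 1 UMI of each gene asked for, the shares were 7.36% in H3R26C DMSO and 0.458% in H3WT DMSO, and 2.31% and 0.484% in the 5-Aza libraries. The order of the genotypes was the same in both counts, while the H3WT DMSO and 5-Aza intervals overlapped after thinning (0.267% to 0.733% and 0.324% to 0.694%). The DMSO libraries had 54 barcodes in common, 24 of them kept in both. Of the marker-positive H3R26C cells, 6 carried a barcode also found among all barcodes of H3WT DMSO, kept or not.

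**Figure D1:**
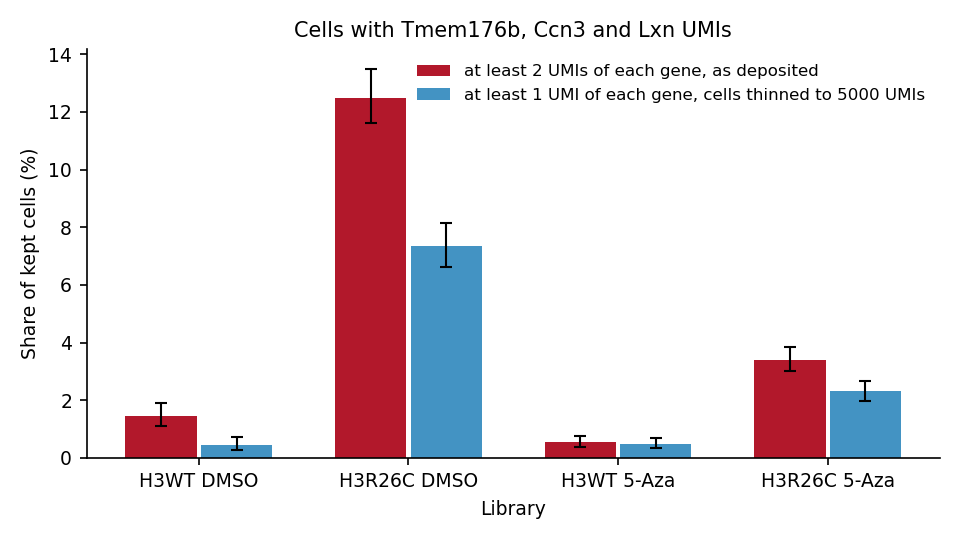
Share of kept cells (y axis, %) that met the selection in each library (x axis), as deposited (red, at least 2 UMIs of each gene) and after thinning (blue, at least 1 UMI of each gene). Bars are shares with exact binomial 95% intervals, and the H3R26C DMSO bars, at 12.5% and 7.36%, stand above those of the other 3 libraries.

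The values that chose the cells are given as a description. In H3R26C DMSO the marker-positive cells held 2 to 25 Tmem176b UMIs (median 5), 2 to 239 of Ccn3 (median 25) and 2 to 147 of Lxn (median 6). Their summed levels were 229 CPM of Tmem176b, 1457 CPM of Ccn3 and 591 CPM of Lxn, against 0, 625 and 80.3 CPM in the cells with no Tmem176b UMI. In H3WT DMSO the levels were 138, 736 and 403 CPM against 0, 526 and 50.5 CPM. The absence of Tmem176b from the reference is set by its definition. Among thinned H3R26C DMSO cells, 89.0% of those with a Tmem176b UMI held Ccn3 against 55.8% of those without, and 59.4% against 27.5% held Lxn. In H3WT 5-Aza the direction for Ccn3 was the opposite, with 43.1% of the cells with a Tmem176b UMI against 58.9% of those without. Just inside the threshold, where the scarcest of the 3 genes had 2 UMIs, lay 208 H3R26C and 25 H3WT DMSO cells, and just outside, at 1 UMI, lay 311 and 44 cells. In H3R26C, Tmem176b, whose level the threshold itself sets, was at 156 CPM just inside and 115 CPM just outside. Spp1 was at 1083 and 823 CPM and Eln at 27.8 and 53.1 CPM.

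The selected cells held more UMIs than the reference, a difference that the selection itself favours, since a deeper cell more often reaches 2 UMIs of 3 genes. Their median was 21615 UMIs against 16160 in H3R26C DMSO and 35304 against 22316 in H3WT DMSO. In H3R26C the median was 17239 UMIs just outside the threshold, 18712 just inside and 23129 where each gene had 3 or more, while the 233 cells with at least 2 UMIs of Tmem176b but fewer of Ccn3 or Lxn had 16363, near the reference. Cells above 2 times their library's median UMIs made up 14.0% of the marker-positive and 1.11% of the reference cells in H3R26C, and 29.6% against 1.48% in H3WT. Droplets with more than 1 cell would also be found among such barcodes, and their part in the results was not tested beyond the counts without these barcodes given below. The median mitochondrial share was 1.96% against 2.95% in H3R26C and 2.41% against 3.88% in H3WT. Of a list of 7 nuclear-retained RNAs and RNA quality features, 1 was lower by a log2 ratio of at least 1 in H3R26C and 3 in H3WT. Over all genes 4.24% in H3R26C and 5.54% in H3WT were lower by as much. Malat1 was at 4966 against 8937 CPM (log2 ratio -0.85) in H3R26C and at 4133 against 9624 CPM (-1.22) in H3WT. Of 20 ribosomal protein genes none was past a log2 ratio of 1. The part of RNA content and quality in the gene differences was not tested beyond the comparisons matched on UMIs.

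When the 3 selecting genes were left out of the variable genes, the marker-positive cells still lay near each other in expression. Of the 30 nearest cells of a marker-positive cell in H3R26C DMSO, on 20 principal components, 50.4% on average were marker-positive, against 5.17% around the reference cells and 12.5% in the library. In H3WT DMSO these shares were 24.8%, 0.964% and 1.46%. Only 10 of the 591 H3R26C cells and 1 of the 54 H3WT cells had no marker-positive cell among their 30 neighbours. At least as many marker-positive as other neighbours were found for 362 of the 591 H3R26C cells but for 0 of the 54 H3WT cells. Cell cycle genes were not left out, and the part of phase in these shares was not tested. In cells thinned to 5000 UMIs the shares around marker-positive cells were 49.0% and 25.2%, close to those at full depth.

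Across all genes the contrast was similar in the separate libraries. In H3WT DMSO 693 of 8983 genes with at least 10 CPM in either set were higher in the marker-positive cells by a log2 ratio of at least 1 (7.71% of the genes), and 498 were lower by as much (5.54%). In H3R26C DMSO 432 of 8901 were higher (4.85%) and 377 lower (4.24%). Of the 8690 genes measured in both, 391 were higher (4.50%) and 278 lower (3.2%) in both libraries, and 1, Dlk1, was higher in the one and lower in the other. These numbers are sizes past a fold, not test results. Ly6a, a surface marker of mesenchymal progenitors, stayed within the fold in summed level, at 574 against 580 CPM in H3WT and 535 against 719 CPM in H3R26C. So did Pdgfra, the platelet-derived growth factor receptor alpha, at 104 against 112 and 100 against 133 CPM. After thinning, a Ly6a UMI was found in 77.8% of marker-positive against 53.6% of reference cells in H3WT, and in 71.2% against 60.3% in H3R26C. The shares for Pdgfra were 38.9% against 40.4% and 37.2% against 45.1%. Of the mesenchymal surface list, 3 of 11 measured members in H3R26C and 3 of 10 in H3WT were higher and 1 lower, among the higher ones the hyaluronan receptor Cd44 at 42.1 against 18.9 and 50.5 against 14.1 CPM.

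**Figure D2:**
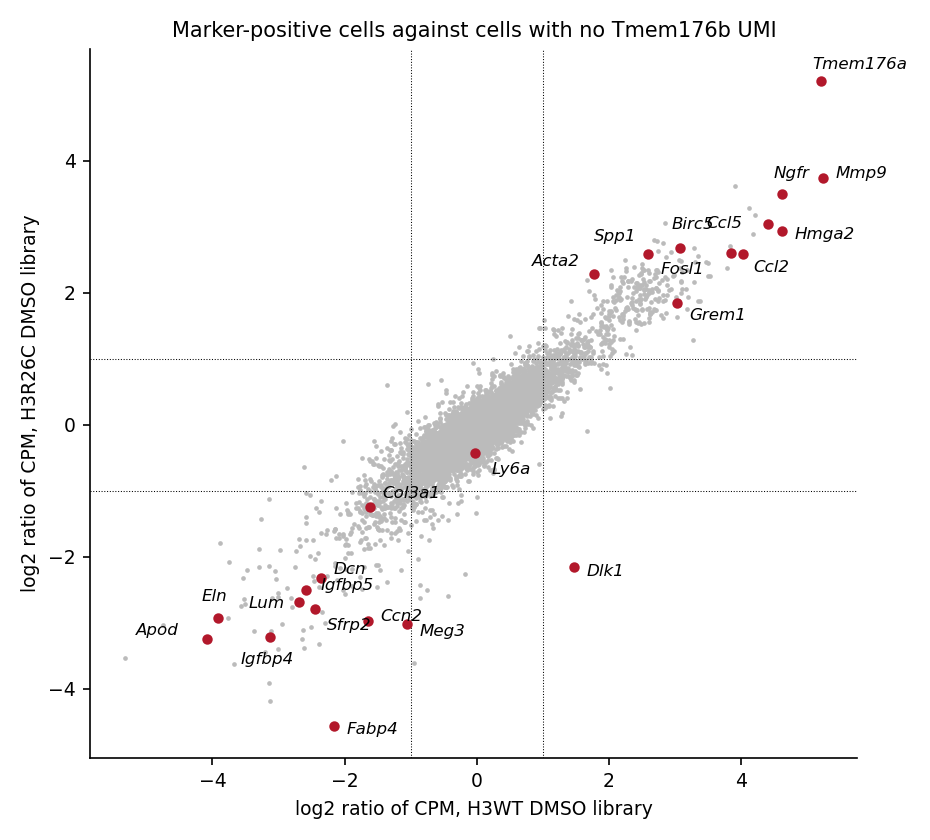
Log2 ratio of CPM (pseudocount 1 CPM) of marker-positive cells to cells with no Tmem176b UMI in H3WT DMSO (x axis) and H3R26C DMSO (y axis), 1 point per gene with at least 10 CPM in either set of both libraries. Dotted lines mark a log2 ratio of 1 in size, red points are example genes with their symbols, and Dlk1 is the 1 gene past the lines in opposite directions.

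The genes with the highest ratios over all cells in both libraries were of several kinds: a matrix protease, chromatin architecture factors, CC chemokines, the matrix phosphoprotein Spp1 and cell cycle genes. Which of them stayed past the fold within a phase or at like UMI content is given below. Mmp9 (matrix metalloproteinase 9, a gelatinase) was at 72.7 CPM (68.3 to 77.4) against 4.57 CPM (4.05 to 5.14) in H3R26C and at 90.4 CPM (77.8 to 104) against 1.43 CPM (1.18 to 1.71) in H3WT. Hmga2, an architectural chromatin protein of embryonic and tumour cells, was at 69.6 against 8.22 CPM in H3R26C and at 109 against 3.49 CPM in H3WT. Its relative Hmga1 was at 184 against 27.2 CPM and at 243 against 16.1 CPM. The AP-1 subunit Fosl1 was at 67.7 against 10.3 CPM and at 86.0 against 4.99 CPM. Mmp9 was scarce in the reference cells, in which, after thinning, 1.25% of H3R26C and 0.280% of H3WT cells held an Mmp9 UMI, against 22.7% and 18.5% of the marker-positive cells. The reference shares were 2.53% and 0.978% for Hmga2 and 2.78% and 1.29% for Fosl1. Hmga1 was less scarce, in 8.42% and 5.56% of the reference and 28.8% and 37.0% of the marker-positive cells.

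Spp1 (osteopontin), an early mesenchymal lineage gene, and Acta2, smooth muscle actin, were abundant and found in most marker-positive cells. Spp1 was at 1428 CPM (1408 to 1448) against 237 CPM (233 to 241) in H3R26C and at 1440 CPM (1389 to 1493) against 237 CPM (234 to 240) in H3WT. Its per-cell median was 900 CPM in the 591 H3R26C cells, from 0 to 8753 CPM, against a median of 0 in the reference cells, of which single cells reached 10699 CPM. Acta2 was at 880 against 180 CPM in H3R26C and at 742 against 216 CPM in H3WT, and a thinned UMI of it was found in 72.6% against 27.4% and in 61.1% against 32.6% of the cells. The ranges of single cells overlapped for both genes. The other measured members of the smooth muscle list were not higher by the fold: Smtn was at 37.3 against 33.2 CPM in H3R26C, Mylk at 31.5 against 60.6 CPM and Lmod1 at 5.72 against 12.5 CPM, so that 1 of 4 measured members was higher and 1 lower in H3R26C, and the same numbers held in H3WT. Of all genes, 4.85% were higher and 4.24% lower in H3R26C, and 7.71% and 5.54% in H3WT.

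Chemokines were uneven between cells. Of the list of 21 chemokines and interleukins, 8 of 10 measured members in H3WT and 6 of 11 in H3R26C were higher and none was lower. The shares of all genes higher were 7.71% in H3WT and 4.85% in H3R26C. Median log2 ratios of the list were 1.60 in H3WT and 1.04 in H3R26C beside 0.05 and -0.03 over all genes. Ccl2, which draws monocytes, was at 540 against 88.8 CPM in H3R26C and at 692 against 41.0 CPM in H3WT. Ccl7 was at 330 against 43.7 and 281 against 14.6 CPM, and Ccl5 at 71.0 against 7.77 and 68.0 against 2.22 CPM. Only 43.7% of the H3R26C and 55.6% of the H3WT marker-positive cells held any Ccl2 UMI at full depth, with single cells up to 11335 and 4718 CPM, and reference cells reached 20646 and 6580 CPM. Cxcl12, which was the most abundant of the list, was at 1404 against 562 CPM in H3R26C and at 1413 against 487 CPM in H3WT.

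Genes of class I antigen presentation were partly higher. In both libraries 4 of 13 measured members were higher and none lower, beside 4.85% and 7.71% of all genes higher in H3R26C and H3WT, with list medians of 0.85 and 0.35 beside -0.03 and 0.05 over all genes. Psmb9, an immunoproteasome subunit, was at 62.2 against 18.8 CPM in H3R26C and at 37.9 against 12.3 CPM in H3WT. The peptide transporter gene Tap1 was at 21.8 against 9.09 and 23.8 against 6.52 CPM, and H2-Q4 at 159 against 58.3 and 74.3 against 32.4 CPM, although reads of H2-Q genes can be split among near-identical copies. B2m, the shared light chain, went the other way at 486 against 634 and 427 against 628 CPM. The interferon-stimulated list had 1 of 16 members higher and 0 lower in H3R26C and 1 of 14 higher and 2 lower in H3WT, a higher share near the 4.85% and 7.71% over all genes. Its 1 higher member, Ifi27l2a, was at 180 against 48.0 and 59.8 against 21.6 CPM.

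Several genes of a fibroblast's extracellular matrix were lower in the marker-positive cells. Eln (elastin) was at 20.1 CPM (17.8 to 22.6) against 160 CPM (157 to 163) in H3R26C and at 29.6 CPM (22.7 to 38.1) against 459 CPM (455 to 464) in H3WT. Of the elastic fibre and microfibril list, 8 of 18 measured members in H3R26C and 9 of 17 in H3WT were lower and none was higher, beside 4.24% and 5.54% of all genes lower, a background that also holds for the other matrix lists. Among them were the microfibril genes Mfap5, at 24.1 against 167 and 18.9 against 236 CPM, and Mfap4, at 3.04 against 41.8 and 2.43 against 26.4 CPM. Among the small proteoglycans, which bind and space collagen fibrils, 4 of 9 in H3R26C and 6 of 8 in H3WT were lower and 1 was higher. Dcn (decorin) was at 350 against 1747 and 174 against 897 CPM, and Lum (lumican) at 67.2 against 439 and 46.2 against 304 CPM. The higher member was Prelp, at 69.3 against 26.8 and 102 against 43.5 CPM. Of the collagen chains none of 17 was higher, 5 were lower in H3R26C and 4 in H3WT, and Col1a1 stayed at 2842 against 3231 and 2212 against 3117 CPM while Col15a1 was at 102 against 479 and 59.8 against 506 CPM. Of the matrix proteases and inhibitors, 2 of 16 were higher and 4 lower in H3R26C, and 2 of 15 were higher and 6 lower in H3WT. Mmp2, a second gelatinase, was lower, at 275 against 709 and 291 against 892 CPM.

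Of the IGF axis, the insulin-like growth factor pathway, 4 of 8 measured members were lower in both libraries and none higher, beside 4.24% of all genes lower in H3R26C and 5.54% in H3WT, the ligand Igf1 at 131 against 587 and 77.2 against 524 CPM and the binding protein Igfbp4 at 25 against 239 and 29.1 against 262 CPM. Apod, a lipocalin that carries lipids, was at 113 CPM (108 to 119) against 1087 CPM (1079 to 1095) in H3R26C and at 53.9 CPM (44.4 to 64.9) against 933 CPM (927 to 940) in H3WT. The Wnt antagonist gene Sfrp2 was at 90.8 against 639 and 74.3 against 411 CPM. Grem1, an antagonist of BMP ligands, went the other way, at 174 against 47.8 and 318 against 38.0 CPM. The relatives of Ccn3 did not accompany it: of the 4 measured other CCN genes none was higher and 2, Ccn2 and Ccn5, were lower in both libraries, with Ccn5 at 26.5 against 120 and 21.9 against 200 CPM and Ccn2 at 5.14 against 47.2 and 20.9 against 67.1 CPM. Among 20 immediate early genes 7 were lower in H3R26C and 8 in H3WT, beside the same 4.24% and 5.54% of all genes, including Fosb at 12.5 against 49.5 and 13.6 against 114 CPM, and Fosl1 was the 1 higher member.

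Markers of other cell types were checked for the whole lists. Their counts stand beside 4.85% of all genes higher and 4.24% lower in H3R26C DMSO, and 7.71% and 5.54% in H3WT DMSO. None of 13 skeletal muscle, 7 endothelial or 7 epithelial markers reached 10 CPM in the marker-positive or reference cells of the DMSO libraries, and the summed skeletal muscle level was 1.45 CPM in H3R26C and 0.972 CPM in H3WT. The 12 blood and macrophage markers summed to 19.8 and 21.9 CPM, Cd74 being the most abundant at 13.7 and 9.72 CPM. Ptprc, Adgre1, C1qa, C1qb and Tyrobp were at 0 in the marker-positive cells of both libraries. Of the adipocyte markers, 6 of 8 measured members were lower in H3R26C and 2 of 5 in H3WT, Fabp4 being at 2.32 against 77.1 and 3.4 against 18.7 CPM. In the chondrocyte list 1 of 2 measured members was higher in each library: Sox9, a cartilage factor, was at 344 against 306 and 435 against 385 CPM, and Col2a1, the cartilage collagen, at 95.1 against 27.1 and 108 against 21.6 CPM. In the tendon list 1 of 2 was higher, the transcription factor Scx at 12.4 against 5.38 and 22.3 against 3.83 CPM, and in the osteoblast list 1 of 2 was lower, Phex at 72.6 against 292 and 44.2 against 258 CPM. In the glia and neural list Stmn2, a neuronal growth gene, was higher in H3R26C at 73.1 against 3.93 CPM, 1 of 2 measured members, and in H3WT the 1 measured member, S100b, was lower at 6.80 against 18.6 CPM. Sox10, a transcription factor of glia, was at 0 in the marker-positive cells of both DMSO libraries.

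The marker-positive cells were more often called as cycling. After thinning, 56.5% (52.4% to 60.6%) of the H3R26C DMSO cells were called G1, 20.5% S and 23% G2M, against 88.4%, 8.53% and 3.06% of the reference cells. In H3WT DMSO the G1 share was 48.1% (34.3% to 62.2%) against 87.1% (86.0% to 88.2%). Kept cells with a Tmem176b UMI outside the selection were 85.1% (81.8% to 88.0%) G1 in H3R26C and 78.5% (67.8% to 86.9%) in H3WT. Marker-positive S and G2M cells had medians of 28336 UMIs against 17994 in G1 in H3R26C, and 47436 against 29347 in H3WT. The selection favours deep cells, and thinning evens the calls but not the selection. The part of depth in the phase shares was not tested. The genes moved with the calls they make: of the S phase list 27 of 39 measured members were higher in H3R26C and 35 of 40 in H3WT, and of the G2 and mitosis list 46 of 54 and 48 of 54, with none lower. Among all genes 4.85% were higher in H3R26C and 7.71% in H3WT. Birc5 (survivin), a gene of mitosis, was at 294 against 45.0 and 296 against 34.2 CPM. When reference cells were weighted to the UMI distribution of the marker-positive cells, its log2 ratio was below the fold. It was then 0.89 in H3R26C and 0.71 in H3WT, from 2.68 and 3.08. Ube2c, Ccna2, Pclaf and Ccnb1 were also below the fold in both libraries under this weighting, Spc24 in H3WT and Cenpm in H3R26C. With 5-Aza the G1 share was 62.5% (43.7% to 78.9%) against 86.8% (85.9% to 87.7%) in H3WT, and 76.5% (70.9% to 81.6%) against 74.2% (73.1% to 75.2%) in H3R26C, where the intervals overlapped.

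**Figure D3:**
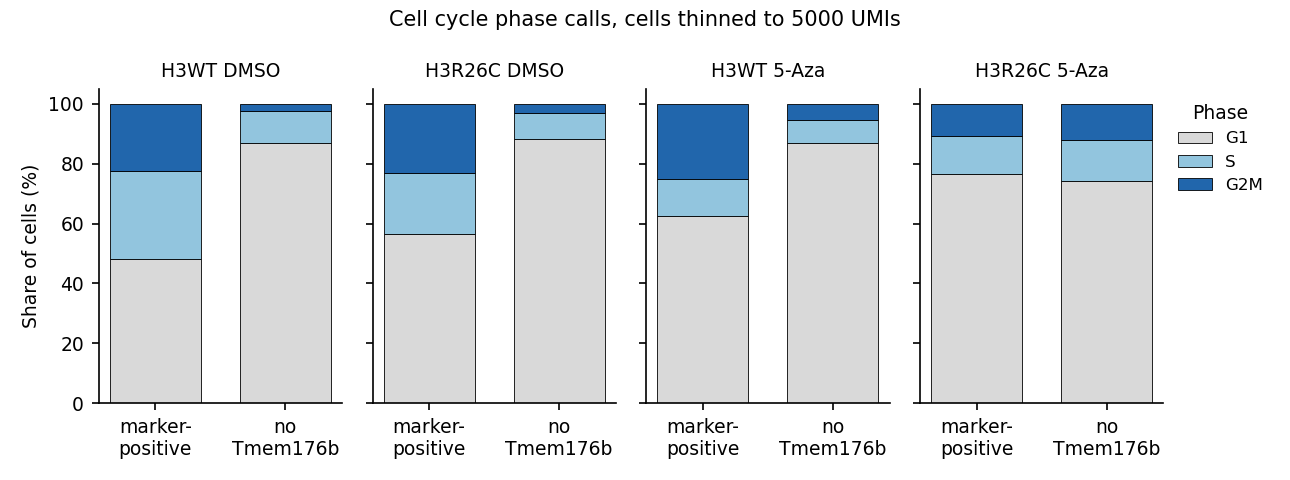
Phase calls (stacked bars, % of cells, y axis) of marker-positive cells and cells with no Tmem176b UMI in the 4 libraries, after thinning to 5000 UMIs. G1 makes up 56.5% and 48.1% of the marker-positive cells in H3R26C and H3WT DMSO, below the reference cells beside them, and 76.5% in H3R26C 5-Aza.

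Separating the phases divided the higher genes into those that stayed higher in G1 cells and those that did not. Among the 334 H3R26C and 26 H3WT marker-positive cells in G1, Tmem176a was at 112 and 54.5 CPM against 1.93 and 0.353 CPM in G1 reference cells. Spp1 was at 1122 against 170 CPM in H3R26C and 1051 against 213 CPM in H3WT, and Acta2 at 905 against 157 and 1331 against 207 CPM. For Ccl2 in H3WT the difference lay in the cycling cells: it was at 20.3 CPM in marker-positive and 19.0 CPM in reference G1 cells, but at 1109 against 172 CPM in S and G2M cells. Ccl7 and Ccl5 likewise had log2 ratios of 0.15 and 0.39 in G1 cells of H3WT, from 4.18 and 4.42 over all cells. In H3R26C Ccl2 was at 90.5 against 34.4 CPM in G1 and at 935 against 431 CPM in S and G2M. Mmp9 and Hmga2 were higher in both phase groups yet most abundant in cycling cells, with Hmga2 at 17.7 against 3.54 CPM in G1 and 115 against 37.6 CPM in S and G2M of H3R26C. The lower genes were lower in each phase group: in G1 cells Eln was at 21.8 against 163 CPM in H3R26C and 48.2 against 455 CPM in H3WT, Apod at 157 against 1143 and 123 against 977 CPM, and Lum at 110 against 469 and 92.5 against 316 CPM.

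**Figure D4:**
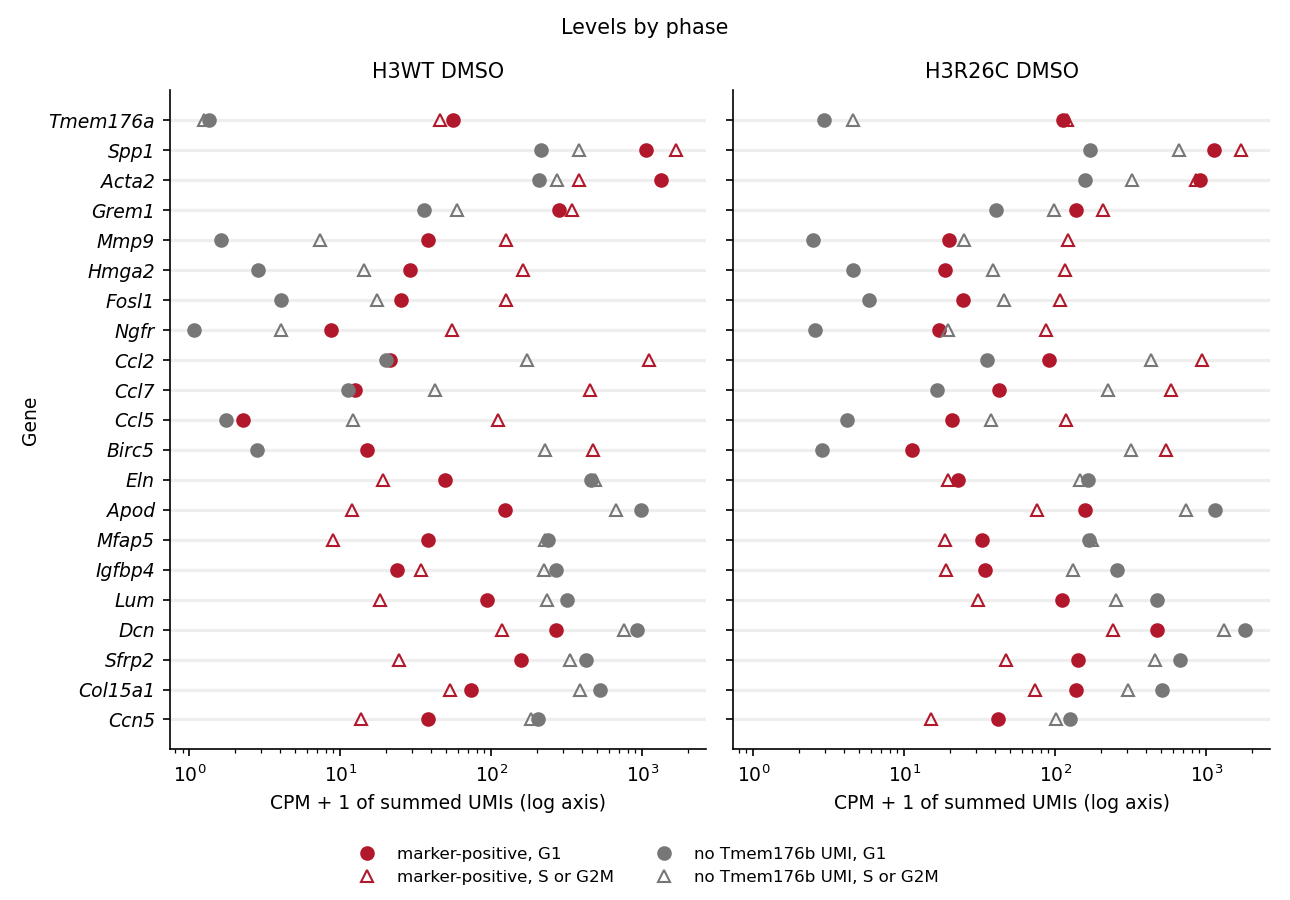
CPM + 1 of summed UMIs (x axis, log scale) of 21 genes (y axis) in the DMSO libraries, for marker-positive cells (red) and cells with no Tmem176b UMI (grey), in G1 (filled circles) or in S or G2M (open triangles). Red and grey circles are apart for Tmem176a, Spp1, Acta2 and the matrix genes, while for Ccl2 in H3WT the G1 values, 20.3 and 19.0 CPM, coincide.

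Part of the genes past the fold in both libraries stayed past it within a phase, with fewer cells, or at like UMI content. Of the 391 genes higher in both DMSO libraries, 71 (18.2%) stayed past the fold in both in G1 cells alone and 57 (14.6%) when reference cells were weighted to the UMI distribution of the marker-positive cells. Of the 278 lower genes, 129 (46.4%) and 151 (54.3%) did. Under these comparisons and among S and G2M cells alike, 26 higher and 87 lower genes remained past the fold in both libraries. Without the cells above 2 times the median UMIs, 259 (66.2%) of the higher and 184 (66.2%) of the lower genes remained. Mmp9, Hmga2, Fosl1 and Spp1, and the 10 genes that led the lower set, were past the fold in both libraries under each of the 10 alternatives that can change a gene's ratio. With UMI weighting these 4 higher genes had smaller log2 ratios in H3R26C and H3WT. Spp1 was at 1.43 and 1.24, from 2.59 and 2.60, and Mmp9 at 2.20 and 3.22, from 3.73 and 5.24. Hmga2 was at 1.42 and 2.45, from 2.94 and 4.62, and Fosl1 at 1.25 and 1.65, from 2.60 and 3.86. The other 11 leading higher genes each missed it under at least 1 alternative in at least 1 library.

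Cells with Ccn3 and Lxn but no Tmem176b had levels in between for the 4 genes given here, and they too held more UMIs than all cells with no Tmem176b UMI, with medians of 19718 against 16160 in H3R26C and 28375 against 22316 in H3WT. In H3R26C DMSO, 600 cells had at least 2 UMIs of Ccn3 and of Lxn and none of Tmem176b, and in them Spp1 was at 726 CPM, Acta2 at 427 CPM, Eln at 134 CPM and Apod at 516 CPM. The 629 such cells of H3WT DMSO had Spp1 at 488 CPM, Acta2 at 387 CPM, Eln at 380 CPM and Apod at 459 CPM. All 8 values lay between those of the marker-positive cells and of all cells with no Tmem176b UMI in the same library. Tmem176a was at 5.82 and 0.584 CPM in these cells, nearer to the reference. They are a subset of the reference cells, so the comparison is a description.

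In the 5-Aza libraries, whose cells were not used to choose the leading genes, the leading genes passed the fold to different extents. The share of all genes past the fold is not given for these libraries, so the counts here have no such background. Median log2 ratios over all genes were 0.05 in H3WT 5-Aza and -0.00 in H3R26C 5-Aza. All 15 genes that led the higher set in DMSO were past the fold in the 32 marker-positive H3WT 5-Aza cells, with log2 ratios of 1.56 to 3.77, but only 1 of 15, Mmp9 at 1.61, was in the 260 cells of H3R26C 5-Aza, where their median log2 ratio was -0.07. Spp1 was there at 6421 CPM in the marker-positive and 4850 CPM in the reference cells, both above the 1428 and 237 CPM of H3R26C DMSO. Hmga2 was at 74.1 CPM in the reference cells of H3R26C 5-Aza against 8.22 CPM in those of H3R26C DMSO, and Birc5 at 157 against 45.0 CPM. Of the 10 leading lower genes, 6 and 5 were past the fold in the same direction, and 1, Foxd1, was past it in the other direction in H3R26C 5-Aza at 1.34. Tmem176a had log2 ratios of 5.59 and 5.52. Acta2, higher in DMSO, was lower in the marker-positive cells of both 5-Aza libraries, though within the fold. It was at 263 against 451 CPM in H3WT 5-Aza (log2 ratio -0.77) and at 274 against 473 CPM in H3R26C 5-Aza (-0.78). Enpp2 (autotaxin, which makes lysophosphatidic acid) had 3.22 in H3R26C 5-Aza against 0.49 in H3R26C DMSO. Of the class I presentation list 8 of 13 members were higher in H3R26C 5-Aza and 1 of 13 in H3WT 5-Aza, again with no share of all genes beside them. The list medians were 1.06 and 0.24. Psmb9 had log2 ratios of 1.98 and 1.27, Tap1 of 1.51 and 0.75, and H2-Q4 of 1.17 and 0.32. Whether the ratios differ between treatments was not tested.

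**Figure D5:**
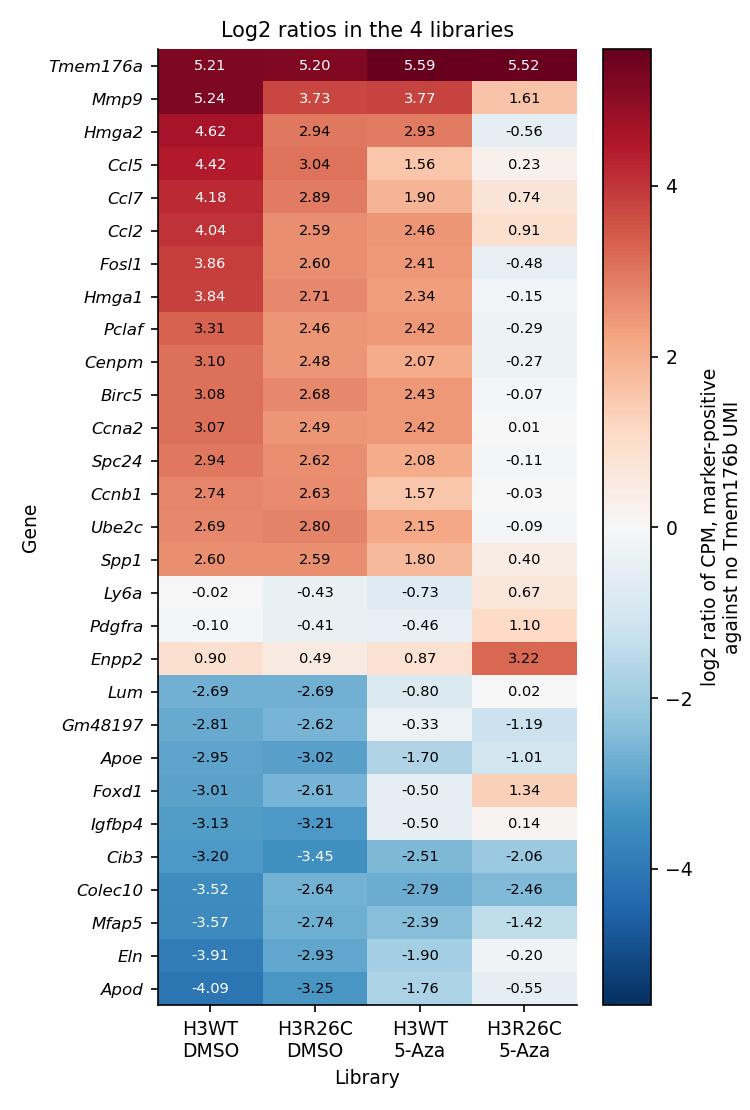
Log2 ratio of CPM (pseudocount 1 CPM; colour and printed value) of marker-positive cells to cells with no Tmem176b UMI for Tmem176a, the 15 leading higher genes, Ly6a, Pdgfra, Enpp2 and the 10 leading lower genes (y axis) in the 4 libraries (x axis). The H3WT 5-Aza column has the colours of the DMSO columns for the higher genes, whereas in H3R26C 5-Aza 1 of those 15, Mmp9, is past a log2 ratio of 1.

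Some genes differed between the marker-positive cells of the H3WT and H3R26C DMSO libraries. Igfbp5 was at 227 CPM in H3R26C and 59.3 CPM in H3WT, Stmn2 at 73.1 and 8.26 CPM, and Efemp1, a fibulin, at 132 and 13.1 CPM. The reference cells of these libraries differed in the same direction, at 1288 and 359 CPM for Igfbp5, 3.93 and 0.507 CPM for Stmn2, and 73.8 and 8.18 CPM for Efemp1. Meg3, an imprinted noncoding RNA, was at 9.55 CPM in H3R26C and 67.0 CPM in H3WT marker-positive cells, against 84.8 and 141 CPM in the reference. Of the 10 genes that most set the H3R26C reference cells above those of H3WT, among genes with at least 50 CPM in the reference cells of either library, 9 had the same sign in the marker-positive cells, and all 10 of the genes on the H3WT side did. Their median log2 difference, H3R26C over H3WT, was 1.75 in reference and 2.22 in marker-positive cells. On the H3WT side the medians were -1.15 and -0.46, and only Thy1, at -1.33, was past the fold in marker-positive cells.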

How the data were processed

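Single-cell RNA was measured in 4 libraries, 1 per condition. The deposited UMI counts come from Cell Ranger, version 6.1.0 per the file headers, and the submitters' processing notes also name Seurat 4 and the mm10 build. The counts are whole numbers, not normalized, of 32285 genes, and 0 columns were left unmapped. The kept cells held 84060490 (H3R26C DMSO) to 110712425 UMIs (H3R26C 5-Aza) per library. The smallest share that could be told from 0, set at 3 of the kept cells, was 0.0809% (H3WT DMSO) and 0.0635% (H3R26C DMSO).

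UMIs were summed over each set of cells and scaled to CPM, and log2 ratios used a pseudocount of 1 CPM. Intervals are exact (Poisson for levels, Clopper-Pearson for shares) and take each UMI as independent. Phases were called with scanpy 1.11.5 from 43 S and 54 G2M genes on thinned cells. No background RNA was subtracted, no doublet caller was run, and cells above 2 times the median UMIs were instead left out as an alternative. Figures were drawn with matplotlib 3.10.9, and pandas 2.3.3, scipy 1.17.1 and numpy 2.4.6 ran under Python 3.11.15. The ratio step was checked on simulated counts drawn from the pooled reference cells, with no variation between cells and no difference in depth or phase. For H3WT DMSO, 99.0% of 200 genes altered by 2 on the log2 scale among 8983 were recovered, with 9 unaltered genes past the fold. For H3R26C DMSO it was 100% of 200 among 8901, with 0. These counts check the calculation only and are not error rates of the comparisons between real cells.

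The cells, the 40 gene lists and the alternatives were chosen with earlier results of these data known. The genes named are, among those with at least 50 CPM in a set of both DMSO libraries, the 15 with the highest and 10 with the lowest ratio nearer to 0 of both libraries, the 5 that differed most between libraries, up to 3 of each list, Tmem176a, the CCN family and the genes the study names. Adgre1, B2m, C1qa, C1qb, Cd74, Col1a1, Cxcl12, Dlk1, Efemp1, Igf1, Prelp, Ptprc, Smtn, Sox10, Stmn2 and Tyrobp are named beside them, after their values were seen. Gene positions are from GENCODE M21.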

Additional observations from a re-analysis of the deposited data

Results flagged for a closer look

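Dlk1, which encodes a membrane protein that holds back adipocyte differentiation, was the 1 gene past the fold in opposite directions in the DMSO libraries. Its log2 ratio of marker-positive to reference cells was 1.47 in H3WT DMSO (180 against 64.4 CPM) and -2.16 in H3R26C DMSO (8.18 against 39.9 CPM), and the difference was not tested. A Dlk1 UMI was held by 31 of the 54 H3WT marker-positive cells (57.4%, against 21.5% of the reference) and by 19 of the 591 in H3R26C (3.21%, against 10.1%), and the 3 highest cells held 39.9% and 54.9% of the UMIs. With the Dlk1 UMIs of those 3 cells taken out, but all UMIs of the set kept in the total, the marker-positive levels were 108 and 3.69 CPM. The reference levels treated in the same way were 59.9 and 36.8 CPM. On this count H3WT was no longer past the fold, while the level over the remaining cells alone was not computed.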

How the results depend on the processing

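No test paired by library was run. The share of marker-positive cells, 1.46% in H3WT and 12.5% in H3R26C DMSO, was 2.64% and 19.1% with 1 UMI of each gene, 0.782% and 8.10% with 3, 0.458% and 7.36% in thinned cells with 1 UMI, 0.108% and 1.80% in thinned cells with 2, and 1.04% and 11.1% without cells above 2 times the median UMIs. In every one of these the H3R26C share was the larger.

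The genes past the fold, 693 higher and 498 lower in H3WT and 432 and 377 in H3R26C, became 208, 283, 96 and 248 with reference cells weighted by UMIs, 417, 247, 243 and 188 with a pseudocount of 10 CPM, and 277, 192, 158 and 152 with a minimum of 50 CPM. With G1 cells only the higher genes were 319 in H3WT and 150 in H3R26C and the lower genes of H3R26C 232. With S and G2M cells only, an alternative added after the data were seen, the higher genes of H3R26C were 97. Lower genes were 877 in H3WT with 3 UMIs of each gene, and 937 in H3WT and 645 in H3R26C with no CPM minimum, and the higher genes of H3WT were 458 without cells above 2 times the median UMIs. The cause of each shift was not tested.

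Of 228 log2 ratios of named genes in the DMSO libraries, 164 moved by more than counting error with UMI weighting and 175 in G1 cells. Of 60 list medians, 12 moved by more than a set margin under each of these. The list counts given above are those of the main comparison. Values past the fold that changed sign were fewer and are given here. In H3WT the log2 ratio of Ube2c became -0.10 with UMI weighting, and in G1 cells that of Aurkb -0.42 and Gmnn -0.38. In G1 cells of H3R26C Aurkb became -0.30 and the medians of the S phase and the G2 and mitosis lists both -0.02. The share of marker-positive neighbours was 21.5% in H3WT on 10 principal components, and 25.2% in H3WT and 49.0% in H3R26C in thinned cells, and the G1 share was 51.9% and 58.9% without thinning. With 54 cells, H3WT levels are the less precise.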

Other observations

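The shares of all genes past the fold, beside which the list counts here stand, were 4.85% higher and 4.24% lower in H3R26C DMSO and 7.71% and 5.54% in H3WT DMSO. Of the TGF-beta and BMP list, 3 of 20 measured members were higher and 5 lower in H3R26C DMSO, and 5 of 19 were higher and 6 lower in H3WT DMSO. Fst (follistatin, which binds activins) was at 53.9 against 25.7 CPM in H3R26C and 81.1 against 19.3 CPM in H3WT, and Fstl1 at 1150 against 2962 and 949 against 3572 CPM. Of the Notch list 0 of 7 and 1 of 6 were higher and 3 were lower in each library, the target gene Hes1 being at 2.39 against 10.2 and 1.94 against 10.5 CPM. Of the Wnt list 1 of 9 and 1 of 7 were higher and 3 and 2 lower, a higher count of 1 member, the transcription factor Tcf7, at 14.8 against 3.35 and 18.5 against 3.59 CPM.

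Of the lysosome and lipid efflux list, 1 of 16 measured members was higher and 2 were lower in H3R26C, and 0 of 16 were higher and 2 lower in H3WT. Lipa, the lysosomal acid lipase, was at 240 against 85.8 CPM in H3R26C and 145 against 74.3 CPM in H3WT. Apoe, a lipid carrier, was at 14.5 against 124 and 6.80 against 59.3 CPM, and the cholesterol exporter Abca1 at 9.12 against 58.9 and 14.6 against 61.0 CPM. In the complement list 1 of 10 members was higher and 3 were lower in H3R26C, and 0 of 9 were higher and 5 lower in H3WT, with C4b at 1.16 against 17.9 and 1.46 against 20.4 CPM. Of the antioxidant and metallothionein list 1 of 17 members was higher in each library, near the share of all genes, and 0 and 1 were lower, with medians of -0.17 in H3R26C and 0.14 in H3WT. The higher member was the metallothionein gene Mt2, at 349 against 116 and 233 against 80.4 CPM. All members named in this section and their directions are values of single libraries with no test.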
